A study of Mus musculus with 24 samples.

Results

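The genes described here encode the subunits of the mitochondrial respiratory chain and ATP synthase, measured by RNA-seq in differentiating mouse myoblasts. They were taken from the gene table as protein-coding genes that lie on the mitochondrial chromosome or whose symbols begin with Nduf (a, b, c, s or v), Uqcr, Cox4 to Cox8 or Atp5, or are Sdha, Sdhb, Sdhc or Sdhd. This rule found 104 of the 28109 genes in the table. Of these, 95 encode subunits, 82 in the nucleus and 13 in mitochondrial DNA. Complex I held 36 nuclear and 7 mitochondrial genes, complex II 4 nuclear genes, complex III 8 and 1, complex IV 19 and 3, and complex V 15 and 2. The other 9 genes share the symbols but are not counted as subunits of a complex (Ndufaf1, Ndufaf2, Ndufaf3, Ndufaf4, Ndufa4l2, Cox4nb, Atp5s, Atp5sl and Atp5l-ps1). Ndufa4, named after complex I, was counted with complex IV, where the protein is now placed.

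Complexes I, III and IV pass electrons from NADH to oxygen and pump protons across the inner mitochondrial membrane, complex II feeds in electrons from succinate, and complex V, the ATP synthase, uses the proton gradient to make ATP. All of these but complex II are built from products of both genomes, so their assembly needs nuclear and mitochondrial transcripts together. Skeletal muscle depends heavily on this pathway, and complex IV is known for subunits that exist in a ubiquitous form and a form found mainly in heart and skeletal muscle.

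The libraries came from C2C12 cells, an established mouse myoblast line of strain C3H, and from primary myoblasts (PMs) that were isolated from C57/B6 mice 3 to 4 weeks old. Cells were transfected with a control siRNA against luciferase (siControl) or with siRNAs that silence both Tead1 and Tead4 (siTead1/4), transcription factors of the TEA domain family. RNA was prepared at day 0, which was 24 hours after transfection and before the change of medium, and at days 3 and 6 in low-serum differentiation medium. With 2 replicates in each of 12 groups there were 24 libraries. PMs were grown on matrigel in another medium than C2C12 cells, so the cell type, the strain and the culture conditions cannot be told apart. The cultures were measured in bulk, and fewer cells of a type and less RNA per cell cannot be told apart either.

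Libraries held 25453830 to 52784510 counted reads. The summed level of Tead1 and Tead4 in each siTead1/4 library was 7.86% to 59.8% of the mean of the control libraries of the same cell type and day. CPM are counts of a gene per 1000000 of the normalised library size. All 8 myogenic markers exceeded 1 CPM in at least 1 library of each cell type. Their summed level was 574 to 18483 CPM in C2C12 cells and 8505 to 32456 CPM in PMs. The summed level of fibroblast markers was 54.5 to 441 CPM in C2C12 cells and 67.6 to 3001 CPM in PMs, with Tcf21 under 0.5 CPM in every library. Adipocyte markers summed to at most 1.72 CPM, macrophage markers to at most 6.18 CPM, endothelial markers to at most 14.4 CPM and Schwann cell markers to at most 17.7 CPM. PMs at day 0 already held 8505 to 10398 CPM of myogenic markers, against 574 to 1405 CPM in C2C12 cells, so the cell types differed in these markers before the change of medium. In the siTead1/4 C2C12 libraries of day 0 the nuclear subunits were a median of 0.68 log2 units higher in replicate 2 than in replicate 1, and the mitochondrial ones 0.69 lower. In the other 11 groups these medians lay between -0.30 and 0.20 for nuclear and between -0.58 and 0.50 for mitochondrial subunits, so results for C2C12 cells are also given without that replicate 2.

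Levels are given in CPM on a single normalised scale for all 24 libraries. Single genes were compared with one another only in CPM per kilobase of gene length. Shares of counts and the ratio of mitochondrial to nuclear counts were not scaled by gene length. Differences are log2 fold changes with their standard errors (SE) from edgeR's quasi-likelihood test, and a call of up- or down-regulation required a p under 0.05 after Benjamini-Hochberg adjustment over all genes tested. After the filter on low counts, 98 of the 104 genes were tested in C2C12 cells and 100 in PMs. mt-Nd4l, Cox7b2, Cox8c and Atp5l-ps1 were tested in neither cell type, and Cox4i2 and Cox6b2 were not tested in C2C12 cells. mt-Nd4l received 0 or 1 count in every library, although the genes around it had high counts, so its level was not measurable in these counts and is not taken as absence. It overlaps mt-Nd4 by 7 bases, and mt-Atp8 overlaps mt-Atp6 by 43 bases. The libraries did not mark strand, so reads of mt-Nd6, which lies on the opposite strand to the other mitochondrial protein genes, cannot be told from antisense reads.

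In siControl PMs at day 3 the most abundant genes of the set were mitochondrial. mt-Co3 stood at 10206 and 9079 CPM per kilobase, and mt-Co1 at 6130 and 6932. These genes encode core subunits of cytochrome c oxidase. The highest nuclear gene was Atp5b, the catalytic beta subunit of ATP synthase, at 2023 and 1752 CPM per kilobase, the one nuclear subunit above a tested mitochondrial gene in these libraries (mt-Atp8, 1466 and 1286). Atp5b was named after its values were seen.

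The 13 mitochondrial genes took a larger share of the library in differentiated cultures. In siControl PMs they accounted for 2.69% and 2.42% of all counts at day 0, which became 4.49% and 4.72% by day 3 and 4.77% and 4.89% by day 6. The 82 nuclear subunits together accounted for 1.53% and 1.5% at day 0, for 2.13% and 1.93% at day 3 and for 1.62% and 1.55% by day 6. Both shares were higher in the 2 replicates of day 3 than in those of day 0, and by day 6 the nuclear share was again below both values of day 3 while the mitochondrial share was not. The ratio of mitochondrial to nuclear counts was 1.76 and 1.61 at day 0, then 2.11 and 2.44, and by day 6 had reached 2.95 and 3.15.

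In siControl C2C12 cells the mitochondrial share was 2.02% and 2.70% at day 0, then 3.53% and 3.03%, and by day 6 was 3.80% and 3.36%. The nuclear share was 1.15% and 0.977%, then 1.11% and 0.985%, and by day 6 was 1.23% and 1.12%. The replicates of day 0 overlapped those of day 3 in the nuclear share but not in the mitochondrial share. No test was run on these shares.

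**Figure D1:**
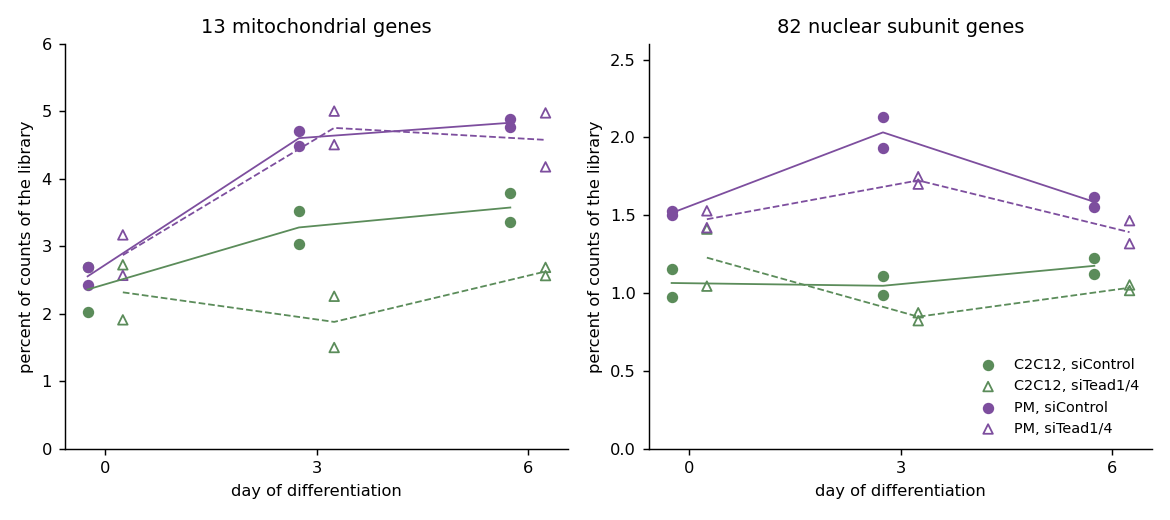
Share of each library's counts, in percent, in the 13 mitochondrial genes (left) and the 82 nuclear subunit genes (right) by day, cell type and siRNA, with 1 point per library and lines through the mean of 2 replicates. The mitochondrial share of siControl PMs rose from 2.69% and 2.42% to 4.77% and 4.89% between day 0 and day 6, while the nuclear share was highest at day 3.

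The first question was how the subunits changed as control cells entered differentiation. In PMs, 88 of 100 tested members were up-regulated at day 3 relative to day 0 and 5 were down-regulated, against 29.7% and 29.1% of all 16144 genes tested. The rise covered every complex and both genomes: 73 of 80 nuclear subunits and 12 of 12 mitochondrial ones were up-regulated. The median log2 fold change was 0.75 for the nuclear subunits (1.68-fold) and 0.95 for the mitochondrial ones (1.93-fold), against 0.01 over all genes tested. More than 2-fold rises were called for 19 members, against 17.5% of all genes, so the rise was broad rather than large. Cell markers moved with this comparison: in siControl PMs myogenic markers summed to 9745 and 10398 CPM at day 0 and to 31145 and 32456 at day 3, and fibroblast markers to 67.6 and 97.8 CPM and then 1046 and 1159, with Tcf21 under 0.5 CPM throughout. Their part in the rise was not tested.

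Complex I, the NADH dehydrogenase, rose almost throughout. Of its 36 nuclear subunits 35 were up-regulated in PMs, with a median log2 fold change of 0.82, and all 6 tested mitochondrial ones, with a median of 1.39. The 7 nuclear core subunits and the 29 supernumerary ones had like medians, 0.84 and 0.82. Ndufa6, a supernumerary subunit of the LYR motif family, had the largest nuclear rise, from 52.9 and 46.1 CPM at day 0 to 128 and 119 CPM at day 3 (log2 fold change 1.27, SE 0.12, adjusted p = 7.58e-06). Ndufc2 was the one subunit of complex I not called in PMs, at 77.2 and 73.2 CPM at day 0 and 85.9 and 80.6 at day 3 (adjusted p = 0.568).

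The mitochondrial genes of complex I encode core subunits of its membrane arm. mt-Nd4 stood at 1932 and 1856 CPM in PMs at day 0 and at 4988 and 5758 CPM at day 3, a log2 fold change of 1.45 (SE 0.17, adjusted p = 3.33e-05). mt-Nd5 rose by 1.44 (SE 0.17, adjusted p = 4.46e-05), mt-Nd6 by 1.45 (SE 0.20, adjusted p = 0.000123) and mt-Nd2 by 1.34 (SE 0.21, adjusted p = 0.000279). mt-Nd1 and mt-Nd3 rose less, by 0.94 (SE 0.18) and 0.51 (SE 0.17). In no tested mitochondrial gene did the day 0 and day 3 replicates of PMs overlap.

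In complex II, the succinate dehydrogenase, 3 of 4 subunits were up-regulated in PMs at day 3. Sdha, the flavoprotein that oxidises succinate, was measured at 456 and 408 CPM at day 0 and 864 and 774 at day 3 (log2 fold change 0.87, SE 0.11, adjusted p = 5.26e-05). Sdhb, the iron-sulphur subunit, rose by 0.39 (SE 0.10, adjusted p = 0.00575) and Sdhc, a membrane anchor, by 0.50 (SE 0.10, adjusted p = 0.00145). Sdhd, the other anchor, had a log2 fold change of 0.23 (SE 0.12, adjusted p = 0.134).

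All 8 nuclear subunits of complex III, the cytochrome bc1 complex, were up-regulated in PMs, with a median of 0.82. Uqcrb, a small subunit near the ubiquinone site, went from 55.4 and 55.1 CPM to 119 and 113 CPM (log2 fold change 1.01, SE 0.11, adjusted p = 1.78e-05). mt-Cytb, the mitochondrially encoded cytochrome b, went from 2658 and 2683 CPM to 5095 and 5724 CPM (0.96, SE 0.18, adjusted p = 0.000801).

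In complex V, 14 of 15 nuclear subunits were up-regulated in PMs, with medians of 0.69 for the 9 genes of the F1 head and stalks and 0.68 for the 6 nuclear genes of the membrane part. Atp5k, subunit e of the membrane part, rose from 104 and 106 CPM to 208 and 190 (log2 fold change 0.87, SE 0.11, adjusted p = 8.7e-05). mt-Atp6, the proton channel subunit, rose by 0.70 (SE 0.14, adjusted p = 0.00158) and mt-Atp8 by 0.70 (SE 0.18, adjusted p = 0.00746). Atp5g1, Atp5g2 and Atp5g3 encode the same mature subunit c of the membrane rotor. Atp5g1 rose by 0.68 (SE 0.13) and Atp5g3 by 0.49 (SE 0.12), while Atp5g2 had 118 and 116 CPM at day 0 and 131 and 141 at day 3 (0.16, SE 0.17, adjusted p = 0.433).

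Complex IV, cytochrome c oxidase, was the complex with called changes in both directions among its subunits. In PMs at day 3, 13 of its 17 tested nuclear subunits were up-regulated and 2 were down-regulated, with a median of 0.52. Its 3 mitochondrial genes, which encode the catalytic core, rose by 0.94 (mt-Co1, SE 0.16), 0.95 (mt-Co2, SE 0.16) and 0.95 (mt-Co3, SE 0.15). Cox5b, a nuclear subunit without an isoform partner, went from 117 and 118 CPM to 222 and 214 CPM (log2 fold change 0.84, SE 0.10, adjusted p = 5.36e-05). Both down-regulated subunits, Cox6a1 and Cox8a, are the ubiquitous forms of subunits that also have a muscle form. The remaining down-regulated members of the set were Cox4nb, a neighbour of Cox4i1 that encodes no subunit, and the complex I assembly factors Ndufaf2 and Ndufaf4, named after their values were seen.

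**Figure D2:**
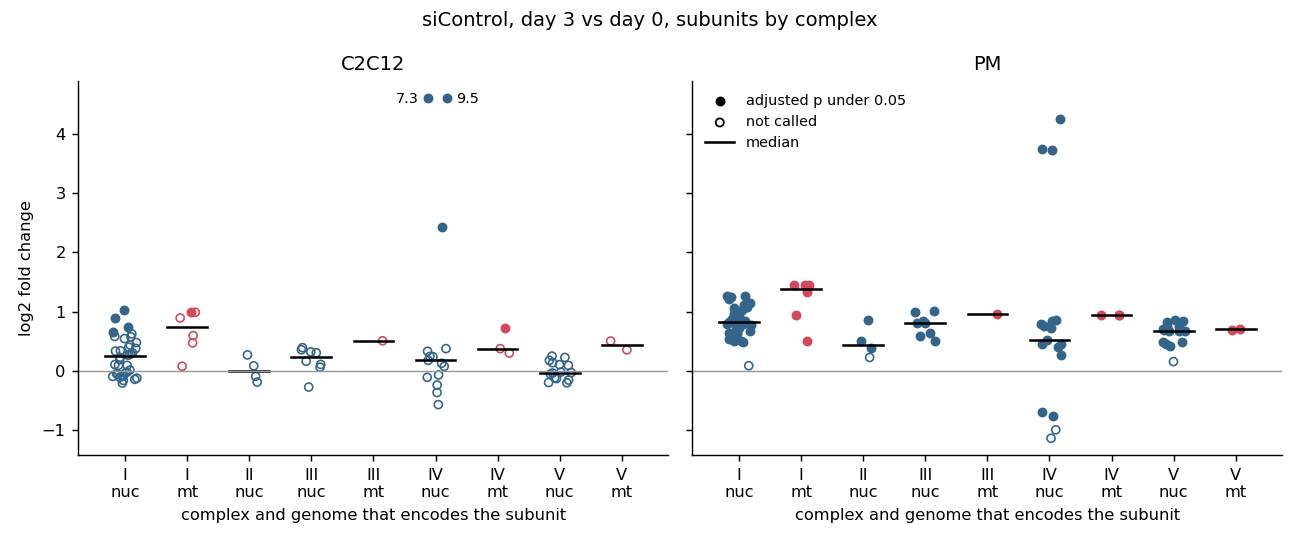
Log2 fold change at day 3 relative to day 0 in siControl C2C12 cells and PMs, by complex, with 1 dot per tested gene in blue for nuclear and red for mitochondrial genes, filled where the adjusted p was under 0.05 and open where it was not, and bars at the medians. Nearly all dots of PMs are filled and above 0: 91.2% of 80 nuclear and 100% of 12 mitochondrial subunits were up-regulated. In C2C12 cells 8.97% of 78 nuclear and 16.7% of 12 mitochondrial subunits were. There Cox6a2 (7.33) and Cox8b (9.51) are drawn at the top edge with their values. Members outside the complexes are not drawn.

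Complex IV isoforms were followed pair by pair. Cox6a2, Cox7a1 and Cox8b are the forms of heart and skeletal muscle, and Cox6a1, Cox7a2 and Cox8a their ubiquitous partners. All 3 muscle genes lie on mouse chromosome 7, in the coordinates of the mm9 build that the submitters used at chr7:135348950-135349880 on the minus strand (Cox6a2), chr7:30969190-30971047 on the plus strand (Cox7a1) and chr7:148084842-148086345 on the minus strand (Cox8b). The promoters of 5 of these 6 genes are shown because the balance of the forms shifted during differentiation. They span 250 bases before to 50 bases after the RefSeq start in build GRCm38.p6, at chr5:115348909-115349208 (Cox6a1, minus strand), chr7:30183921-30184220 (Cox7a1, plus strand), chr9:79759804-79760103 (Cox7a2, minus strand), chr19:7217567-7217866 (Cox8a, minus strand) and chr7:140900397-140900696 (Cox8b, minus strand). Capitals mark matches to motifs of nuclear respiratory factor 1 (GCGCA and GCGC with any 1 base between them), ETS factors (ACTTCCG) and the E-box bound by myogenic factors (CAGCTG).

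Cox6a1: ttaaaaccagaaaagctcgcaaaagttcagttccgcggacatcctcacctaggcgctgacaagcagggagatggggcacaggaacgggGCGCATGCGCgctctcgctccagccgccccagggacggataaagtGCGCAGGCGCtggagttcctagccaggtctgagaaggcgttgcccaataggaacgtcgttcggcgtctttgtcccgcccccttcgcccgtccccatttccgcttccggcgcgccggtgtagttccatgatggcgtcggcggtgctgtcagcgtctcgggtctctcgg
Cox8a: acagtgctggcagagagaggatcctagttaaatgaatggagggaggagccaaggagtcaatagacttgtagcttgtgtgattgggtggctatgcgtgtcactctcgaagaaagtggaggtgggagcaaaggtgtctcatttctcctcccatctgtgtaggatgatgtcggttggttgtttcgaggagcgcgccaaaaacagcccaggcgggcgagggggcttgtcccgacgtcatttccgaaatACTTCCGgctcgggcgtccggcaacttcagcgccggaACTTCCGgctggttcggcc
Cox8b: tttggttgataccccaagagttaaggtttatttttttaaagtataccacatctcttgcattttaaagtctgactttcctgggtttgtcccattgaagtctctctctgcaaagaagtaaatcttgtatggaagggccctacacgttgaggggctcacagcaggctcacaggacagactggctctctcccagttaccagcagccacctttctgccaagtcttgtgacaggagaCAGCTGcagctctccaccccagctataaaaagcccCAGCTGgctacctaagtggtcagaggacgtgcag
Cox7a1: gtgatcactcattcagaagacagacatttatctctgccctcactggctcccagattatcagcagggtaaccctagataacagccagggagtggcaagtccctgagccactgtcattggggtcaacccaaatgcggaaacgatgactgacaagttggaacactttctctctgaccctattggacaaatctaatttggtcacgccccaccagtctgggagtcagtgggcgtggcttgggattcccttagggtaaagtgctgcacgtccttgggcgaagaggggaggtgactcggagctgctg
Cox7a2: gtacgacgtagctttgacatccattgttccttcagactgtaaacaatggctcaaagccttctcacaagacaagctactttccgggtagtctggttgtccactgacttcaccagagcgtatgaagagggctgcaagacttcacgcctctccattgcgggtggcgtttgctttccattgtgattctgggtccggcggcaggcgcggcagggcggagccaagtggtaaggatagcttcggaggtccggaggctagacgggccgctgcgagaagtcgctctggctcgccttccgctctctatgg

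Cox8b held 2 E-box matches, Cox6a1 2 matches to the nuclear respiratory factor 1 motif and Cox8a 2 ETS matches, and no match was found in the windows of Cox7a1 and Cox7a2. The search covered both strands and also the MCAT motif (CATTCC) and the motif of oestrogen-related receptors (AAGGTCA). Of 17492 genes with a promoter in the same RefSeq table, 17.45% held the E-box letters, 7.17% the nuclear respiratory factor 1 motif, 9.39% the ETS motif, 15.48% the MCAT motif and 4.73% the oestrogen-related receptor motif. For the 68 of 82 nuclear subunits matched to a promoter, these shares were 8.82%, 25%, 14.71%, 10.29% and 11.76%. These are counts of letters, not of bound sites.

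In PMs the muscle forms rose and 2 of the 3 ubiquitous forms fell. Cox6a2 was measured at 13 and 13.6 CPM before differentiation, then at 174 and 197 (day 3) and 202 and 286 (day 6), a log2 fold change of 3.74 at day 3 (SE 0.22, adjusted p = 3.97e-07). Over the same days Cox6a1 fell from 197 and 194 CPM to 142 and 111 and then to 74.8 and 91.8, with log2 fold changes of -0.69 at day 3 (SE 0.14, adjusted p = 0.00192) and -1.3 at day 6 (SE 0.15, adjusted p = 2.41e-05). Of the length-scaled level of the pair, Cox6a2 made up 5.41% and 5.74% before differentiation, 51.5% and 60.7% by day 3 and 70.0% and 73.0% by day 6.

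Cox8b rose from 5.60 and 4.48 CPM to 75.4 and 63.2 at day 3 and stood at 53 and 74.5 at day 6 (log2 fold change 3.72 at day 3, SE 0.32, adjusted p = 4.14e-06). Cox8a fell from 236 and 234 CPM to 145 and 143 and then 98.1 and 113 (log2 fold change -0.76 at day 3, SE 0.12, adjusted p = 0.00025, and -1.22 at day 6, SE 0.12, adjusted p = 7.9e-06). The share of Cox8b in its pair was 3.45% and 2.81% before differentiation, 43.9% and 39.9% by day 3 and 44.9% and 49.9% by day 6.

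The third pair moved differently. Cox7a1 rose from 3.98 and 2.28 CPM to 66.2 and 58.6 at day 3 (log2 fold change 4.24, SE 0.27, adjusted p = 6.31e-07) and was at 42.8 and 28.6 at day 6. Its partner Cox7a2 also rose, from 149 and 145 CPM to 225 and 195 (0.46, SE 0.11, adjusted p = 0.00447), and was back at 154 and 145 CPM at day 6 (-0.05, SE 0.11, adjusted p = 0.728). Cox7a1 made up 37.8% and 38.4% of the pair by day 3 and 36.6% and 29.0% by day 6.

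In C2C12 cells the same muscle forms were induced from close to 0 and were still lower than in PMs at day 6, by log2 differences of 2.20 (Cox6a2, SE 0.46, adjusted p = 0.00116), 1.53 (Cox8b, SE 0.33, adjusted p = 0.00157) and 2.81 (Cox7a1, SE 0.41, adjusted p = 4.65e-05). Cox6a2 had 0.366 and 0.124 CPM before differentiation, 38.3 and 38.1 by day 3 and 58.3 and 47.9 by day 6 (log2 fold change 7.33 at day 3, SE 0.80, adjusted p = 8.81e-05). Day 0 rested on 20 counts in both libraries together against 3505 at day 3, a ratio of 175 with an exact 95% interval of 113 to 287 that covers counting error only. Cox8b had 0 and 0.0178 CPM at day 0, that is 1 count, then 11.6 and 9.11 by day 3 and 27.3 and 16.9 by day 6. The ratio of day 3 to day 0 from 941 counts against 1 was 941, with an exact 95% interval of 168 to 37209, so the fitted log2 fold change of 9.51 (adjusted p = 8.81e-06) depends on the prior count and is no measure of its size.

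Cox7a1 reached only 2.22 and 2.13 CPM at day 3 and 5.18 and 5.01 at day 6 in C2C12 cells, from 0.535 and 0.267 at day 0 (log2 fold change 2.43 at day 3, SE 0.61, adjusted p = 0.0104). The ubiquitous forms were not called in C2C12 cells. Cox6a1 went from 190 and 150 CPM to 138 and 98.4 (-0.56, SE 0.30, adjusted p = 0.158) and Cox8a from 123 and 122 to 135 and 99.4 (-0.10, SE 0.26, adjusted p = 0.779). At day 6 the muscle forms made up 25.4% and 30.0% (Cox6a2), 9.25% and 10.1% (Cox7a1) and 23.9% and 20.8% (Cox8b) of their pairs.

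**Figure D3:**
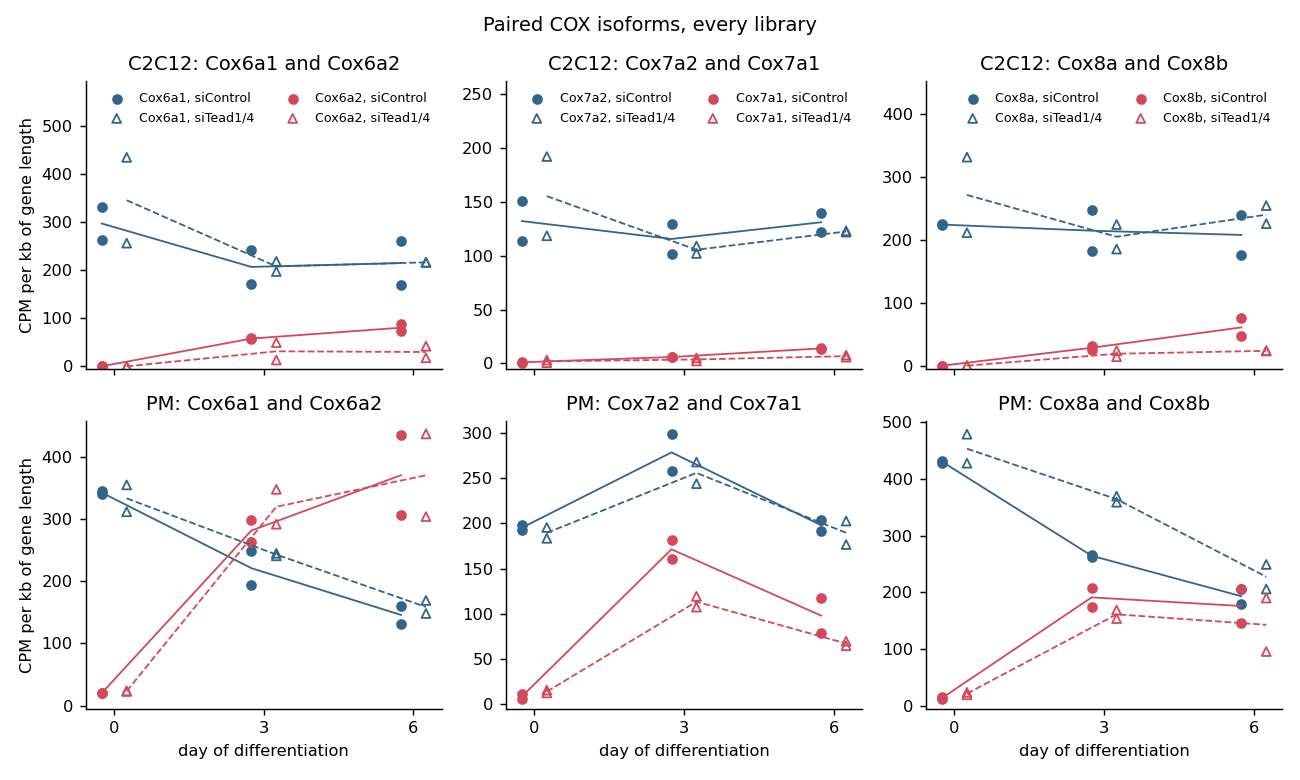
Level of the muscle and ubiquitous isoforms of 3 cytochrome c oxidase subunits in CPM per kilobase of gene length by day, with filled circles and solid lines for siControl, open triangles and dashed lines for siTead1/4, and lines through the mean of 2 replicates. In siControl PMs the share of Cox6a2 in its pair reached 70.0% and 73.0% at day 6, against 25.4% and 30.0% in C2C12 cells.

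The remaining minor isoforms of complex IV stayed low. Cox4i1 was at 343 and 313 CPM in PMs at day 0 and 613 and 543 at day 3 (log2 fold change 0.76, SE 0.13, adjusted p = 0.000406), while its lung and hypoxia form Cox4i2 did not exceed 0.353 CPM in any library. Cox6b2, the testis form of Cox6b1, stood at 2.33 and 3.04 CPM in PMs at day 0 and 0.712 and 1.17 at day 6 (-1.57, SE 0.47, adjusted p = 0.0138) and had at most 4 counts in any C2C12 library. Cox6b1 itself went from 209 and 201 CPM to 420 and 353 at day 3 (0.86, SE 0.12, adjusted p = 0.000122). Cox7a2l, a relative of Cox7a2 that takes part in supercomplexes, rose by 0.41 (SE 0.13, adjusted p = 0.0163), and Ndufa4 by 0.28 (SE 0.10, adjusted p = 0.0395). Cox7b2 had at most 3 counts and Cox8c at most 1 in any library.

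The response of C2C12 cells to differentiation was narrower. At day 3, 11 of 98 tested members (11.2%) were up-regulated and 2 (2.04%) down-regulated, against 20.6% and 19.0% of all 15303 genes tested. More than 2-fold rises were called for 6 members, against 16.0% of all genes. Without replicate 2 of the siTead1/4 day 0 group, which is in neither group compared but shares the estimate of the spread, 18 were up-regulated and 3 down-regulated. The calls numbered 6 without replicate 1 of siControl day 3, and 7 without replicate 2 of that group or of siControl day 0. The median log2 fold change was 0.12 over 78 nuclear subunits and 0.51 over 12 mitochondrial ones, all 12 of which were above 0. Myogenic markers summed to 979 and 1109 CPM at day 0 and 15206 and 17681 at day 3 in these cells, and fibroblast markers to 54.5 and 61.1 and then 342 and 389, and their part was not tested.

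Beside the 3 muscle isoforms, the subunits up-regulated in C2C12 cells at day 3 included Ndufs4, Ndufv3, Ndufa13, mt-Nd6 and mt-Co3. mt-Nd6 went from 424 and 627 CPM to 1155 and 1009 (1.0, SE 0.23, adjusted p = 0.00678) and mt-Co3 from 2681 and 2914 to 5188 and 4340 (0.73, SE 0.24, adjusted p = 0.0362). No gene of complex V was called, nuclear or mitochondrial, and the median of its 15 nuclear genes was -0.02. No nuclear gene of complexes II and III was called either, with Sdha at 249 and 249 CPM at day 0 and 270 and 274 at day 3 (adjusted p = 0.724).

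By day 6 in C2C12 cells 20 members (20.4%) were up-regulated and 3 (3.06%) down-regulated, against 22.1% and 20.9% of all genes, with 8 more than 2-fold up against 17.1%. The 23 calls became 7 and 15 without replicate 1 or 2 of siControl day 6, 15 and 9 without replicate 1 or 2 of siControl day 0, 32 without replicate 2 of siTead1/4 day 0 and 38 in a fit of the siControl libraries alone. With all libraries of the cell type fitted, the 20 up-regulated members included 10 of 36 nuclear subunits of complex I. They also included 1 of 8 of complex III (Uqcrc2, a core protein, 0.47, SE 0.16, adjusted p = 0.035), 3 of 15 of complex IV and 0 of 15 of complex V. The medians were 0.32 for nuclear and 0.57 for mitochondrial subunits. Between days 3 and 6 no member was called by edgeR in C2C12 cells, nor was any gene at all (0%), and 2 members had an unadjusted p under 0.05. DESeq2 also called no member there.

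In PMs the levels of day 6 were compared with both earlier days. The change after day 3 was not tested between the cell types. At day 6, 65 of 100 members were above day 0 in PMs and 6 were below it, against 31.7% and 29.7% of all genes, with 15 more than 2-fold up against 20.2%. The medians were 0.40 for nuclear and 0.97 for mitochondrial subunits. Compared with day 3, 23 members had been down-regulated and none up-regulated at day 6, against 2.54% and 3.71% of all genes. All 23 were nuclear subunits, 10 of complex I, 3 of complex II, 2 of complex III, 4 of complex IV and 4 of complex V. The median log2 fold change from day 3 to day 6 was -0.36 for 80 nuclear subunits and -0.05 for 12 mitochondrial ones, none of which was called by edgeR (1 at an unadjusted p under 0.05).

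The 3 largest called falls were those of Atp5g1, Ndufa9 and Atp5o, named after their values were seen except the first. Atp5g1 went from 166 and 138 CPM at day 3 to 91.2 and 96.7 at day 6 (log2 fold change -0.70, SE 0.13, adjusted p = 0.0141). Sdha went from 864 and 774 CPM to 638 and 582 (-0.44, SE 0.11, adjusted p = 0.0401), Sdhb from 263 and 245 to 192 and 182 (-0.45, SE 0.10, adjusted p = 0.0267) and Sdhd from 351 and 289 to 245 and 216 (-0.49, SE 0.12, adjusted p = 0.0452). Over these days mt-Co1 stood at 9471 and 10709 CPM and then at 12232 and 14222 (0.38, SE 0.16, adjusted p = 0.202). Replicates of day 3 and day 6 did not overlap for these 4 nuclear genes.

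Between days 3 and 6 more than 23 members were called by DESeq2, without the low-count filter or with the replicate number as a block. Fewer were called in a fit of the siControl libraries alone. The 23 calls above also depended on single libraries, and leaving 1 out leaves only 1 in its group. None was made without replicate 1 of siControl day 3, 14 without replicate 2 of that group, and 6 and 5 without replicate 1 or 2 of siControl day 6. Fibroblast markers moved with this comparison: their sum was 1046 and 1159 CPM at day 3 and 1897 and 3001 CPM at day 6 in siControl PMs, mostly Col1a1, while Tcf21 stayed under 0.5 CPM, and myogenic markers summed to 31145 and 32456 CPM at day 3 and 26803 and 30768 at day 6. Their part in the result was not tested.

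**Figure D4:**
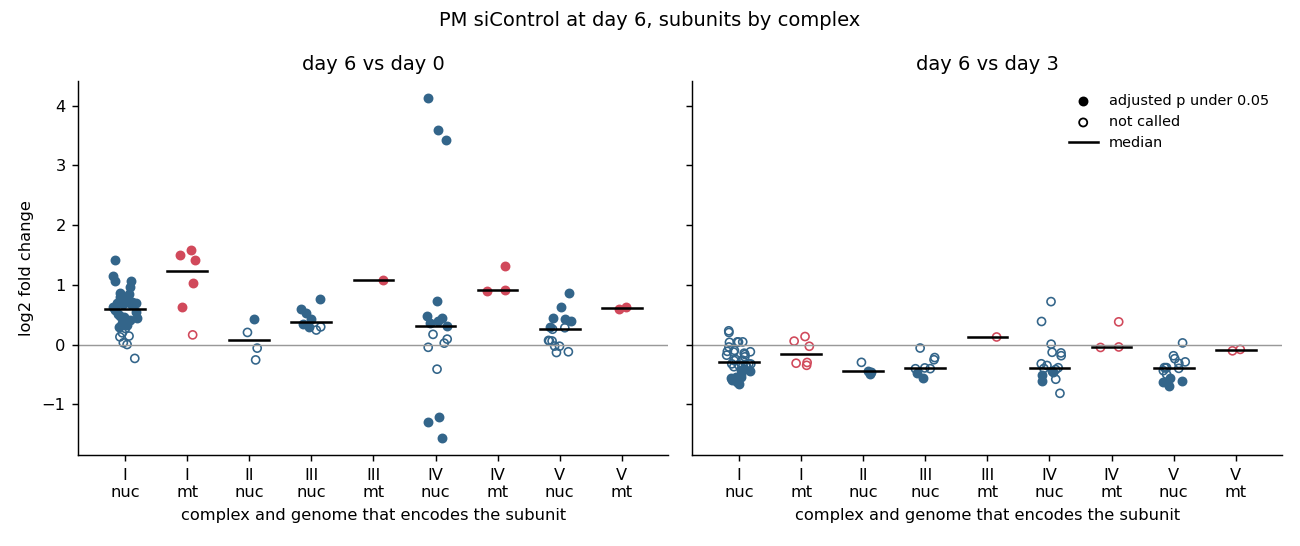
Log2 fold change in siControl PMs at day 6 relative to day 0 and at day 6 relative to day 3, by complex, with 1 dot per tested gene in blue for nuclear and red for mitochondrial genes, filled where the adjusted p was under 0.05, and bars at the medians. Relative to day 3 the nuclear subunits sit lower (median -0.36, 23 called) than the mitochondrial ones (median -0.05, none of 12 called).

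Summed myogenic markers at day 0 were 9745 and 10398 CPM in siControl PMs and 979 and 1109 in siControl C2C12 cells. Their part in the differences between cell types was not tested. Between cell types, many subunits were higher in PMs already at day 0. There 40 of 100 members were higher in PMs and none lower than in C2C12 cells, against 21.4% and 18.7% of all 16926 genes tested. Without replicate 2 of siControl C2C12 day 0, 23 were called. All 4 subunits of complex II were among the 40 called with all libraries, with Sdhd at 268 and 258 CPM in PMs and 142 and 124 in C2C12 cells (log2 difference 0.98, SE 0.16, adjusted p = 8.71e-05). Uqcrc2 had 326 and 315 CPM against 148 and 140 (1.15, SE 0.13, adjusted p = 2.72e-06), and Atp5k 104 and 106 against 49.7 and 41.7 (1.20, SE 0.22, adjusted p = 0.000294). Of the 12 tested mitochondrial genes mt-Nd3 alone was called, at 585 and 510 CPM in PMs and 307 and 260 in C2C12 cells (0.95, SE 0.23, adjusted p = 0.0028).

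At day 6, 50 members were higher in PMs and 1, Cox4nb, was lower (-0.46, SE 0.14, adjusted p = 0.017), against 20.4% and 17.5% of all genes. The 51 calls became 28 without replicate 2 of siControl C2C12 day 6 and 29 without replicate 1 of siControl PMs of that day. The median log2 difference was 0.55 for nuclear and 0.57 for mitochondrial subunits. Sdha was at 638 and 582 CPM in PMs and 263 and 307 in C2C12 cells (1.10, SE 0.14, adjusted p = 9.06e-06). Ndufa4l2, a relative of Ndufa4 known to be induced in hypoxia, was at 1.46 and 5.02 CPM in PMs and 0.212 and 0.10 in C2C12 cells (4.26, SE 0.96, adjusted p = 0.00222), with 154 of the 199 counts of PMs in 1 library.

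Myogenic markers differed between the cell types at day 0, and their part was not tested. The change from day 0 to day 3 was itself compared between cell types. It was larger in PMs for 14 members and smaller for 2, against 4.99% and 8.57% of all genes. The 14 comprised 9 subunits of complex I, Sdha of complex II, Uqcrc1 and Uqcrb of complex III, Cox5a of complex IV and Atp5a1 of complex V, and no mitochondrial gene. Uqcrb, which more than doubled in PMs, was at 63.5 and 55.9 CPM at day 0 and 68.5 and 60.0 at day 3 in C2C12 cells (difference 0.96, SE 0.23, adjusted p = 0.00985). Sdha differed by 0.79 (SE 0.19, adjusted p = 0.0091). The 2 with a smaller log2 change in PMs were Cox6a2 and Cox8b, both near 0 in C2C12 cells at day 0. The 16 calls became 34 without replicate 2 of siTead1/4 C2C12 day 0. They became 7 without replicate 1 of siControl C2C12 day 0, replicate 2 of siControl C2C12 day 3, replicate 1 of siControl PMs of day 3 or replicate 2 of siControl PMs of day 0, 9 without replicate 1 of that last group, and 10 without replicate 1 of siControl C2C12 day 3.

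Silencing of Tead1/4 was compared with siControl at each day to ask whether the chain depends on these factors. In PMs no member was called at day 0, against 7.72% of all genes, with 11 members at an unadjusted p under 0.05 and 4 called by DESeq2. At day 3, 10 members were down-regulated and 1 up-regulated, against 3.43% and 3.91% of all genes. Myogenic markers summed to 27300 and 28971 CPM in these siTead1/4 libraries and 31145 and 32456 in siControl, and fibroblast markers to 994 and 1199 against 1046 and 1159, and their part was not tested. Of 80 nuclear subunits 72 had a log2 fold change below 0, with a median of -0.26, and the median of the 12 mitochondrial ones was -0.16, with none called.

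The down-regulated members in siTead1/4 PMs at day 3 belonged to complexes I (5), II (2), III (2) and V (1). Ndufs1, the largest core subunit of complex I, stood at 478 and 434 CPM in siControl and 334 and 285 in siTead1/4 cells (log2 fold change -0.57, SE 0.11, adjusted p = 0.0156). Sdhb stood at 263 and 245 CPM against 183 and 174 (-0.52, SE 0.10, adjusted p = 0.0121) and Sdha at 864 and 774 against 638 and 587 (-0.43, SE 0.11, adjusted p = 0.0369). Uqcrc2 had 614 and 557 CPM against 452 and 389 (-0.49, SE 0.12, adjusted p = 0.0369), and Atp5f1, subunit b of the peripheral stalk, 489 and 439 against 354 and 313 (-0.49, SE 0.11, adjusted p = 0.0232). In each of these 5 genes both siTead1/4 libraries lay below both controls.

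Cox8a, the ubiquitous form that falls during differentiation, was the one member up-regulated by silencing, at 145 and 143 CPM in siControl and 196 and 202 in siTead1/4 PMs (0.45, SE 0.12, adjusted p = 0.0422). Its partner Cox8b was at 75.4 and 63.2 against 55.8 and 61.2 CPM (-0.25, SE 0.28, adjusted p = 0.655), and Cox6a2 at 174 and 197 against 192 and 229 (0.17, SE 0.19, adjusted p = 0.66). These 11 calls also depended on single libraries: none was made without replicate 1 of siControl day 3 or without replicate 2 of siTead1/4 day 3, 7 and 4 without the other replicate of each, and 1 in a fit of the day 3 libraries alone. More than 11 members were called by DESeq2 and in a fit with the replicate number as a block. The siControl day 3 libraries are shared with the comparison of day 6 with day 3, so the falls in the 2 comparisons are not independent.

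At day 6 in PMs no member was called (1.26% of all genes were), with 23 at an unadjusted p under 0.05 and 4 called by DESeq2. The lowest adjusted p was that of Sdhb, at 192 and 182 CPM in siControl and 132 and 151 in siTead1/4 cells (-0.40, SE 0.10, adjusted p = 0.0898).

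In C2C12 cells no member was called at any day under silencing by edgeR after the filter on low counts (8 at day 3 and 2 at day 6 without it), while 0.444% of all genes were called at day 0, 1.35% at day 3 and 0.0457% at day 6. At day 3 all 12 tested mitochondrial genes had a log2 fold change below 0, with a median of -0.93, as had 76 of 78 nuclear subunits, with a median of -0.31, and 15 members had an unadjusted p under 0.05. Without replicate 1 of the siTead1/4 day 3 group 1 member was called. mt-Nd6 was at 1155 and 1009 CPM in siControl and 592 and 468 in siTead1/4 cells (-1.05, SE 0.23, adjusted p = 0.0638), and mt-Nd1 at 2746 and 2329 against 1577 and 1012 (-0.99, SE 0.28, adjusted p = 0.13). DESeq2 called 3 members at day 3 and 1 at day 6. The mitochondrial share of counts was 2.26% and 1.5% in siTead1/4 cells at day 3 against 3.53% and 3.03% in siControl, without overlap, and 2.69% and 2.57% against 3.80% and 3.36% at day 6.

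The siTead1/4 C2C12 libraries also held less myogenic marker RNA, 5993 and 7876 CPM in sum at day 3 against 15206 and 17681 in siControl, and 7854 and 14826 against 15180 and 18483 at day 6. Its part in the lower mitochondrial levels was not tested. Cox6a2 in these cells was at 8.81 and 32.7 CPM at day 3 against 38.3 and 38.1 in siControl (-0.91, SE 0.56, adjusted p = 0.53), lower in both replicates but with a spread between them that is larger than the difference of the means. The difference in the effect of silencing between the cell types was called by edgeR after the filter on low counts in no member at day 3 or day 6 (2 and 1 without it), against 1.31% and 0.0354% of all genes, with 6 and 3 members at an unadjusted p under 0.05 and 2 called by DESeq2 at day 3. Without replicate 1 of siTead1/4 C2C12 day 3 it was called in 3 members, and without replicate 2 in 1. Its lowest adjusted p at day 3 was that of mt-Nd6 (1.17 higher in PMs, SE 0.31, adjusted p = 0.0795).

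**Figure D5:**
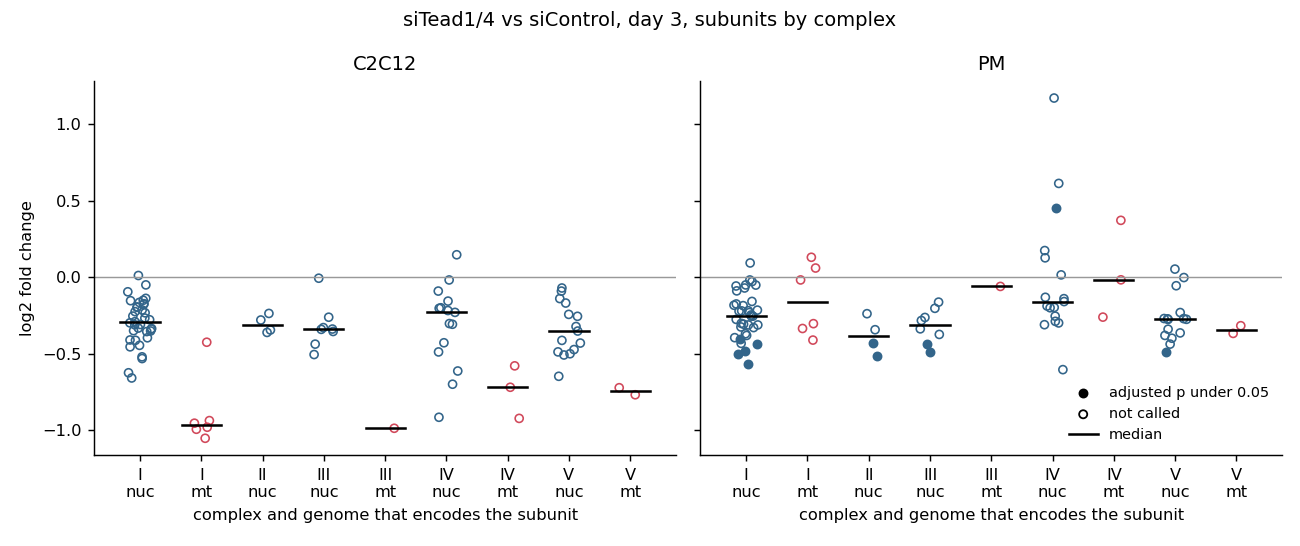
Log2 fold change in siTead1/4 relative to siControl at day 3 in C2C12 cells and PMs, by complex, with 1 dot per tested gene in blue for nuclear and red for mitochondrial genes, filled where the adjusted p was under 0.05, and bars at the medians. In C2C12 cells all 12 mitochondrial dots lie below 0 (median -0.93) and none is called, and in PMs 10 nuclear dots below 0 and Cox8a above 0 are called.

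Genes that build or serve the chain were followed in 4 lists, whose counts at day 3 stand beside 29.7% of all genes up-regulated and 29.1% down-regulated in PMs, and 20.6% and 19.0% in C2C12 cells. Assembly factors (40 of 43 listed genes found in the table, all tested) were up-regulated in 21 and down-regulated in 2 cases in PMs at day 3, with a median log2 fold change of 0.40, and in 2 and 4 cases in C2C12 cells, with a median of 0.12. Cox14, an assembly factor of complex IV listed as 2310016M24Rik, rose from 31.4 and 32.5 CPM to 94.0 and 79.5 in PMs (1.39, SE 0.12, adjusted p = 3.43e-06), while Sco1, a copper chaperone of complex IV, fell by 0.30 (SE 0.10, adjusted p = 0.0268). In C2C12 cells Uqcc1, an assembly factor of complex III listed as Uqcc, rose by 1.05 (SE 0.19, adjusted p = 0.00212), and Cmc2, listed as 2310061C15Rik, had a log2 fold change of -1.26 (SE 0.30, adjusted p = 0.00767). Under silencing in PMs at day 3, when 3.43% of all genes were down-regulated, 7 of these 40 genes were, with Lyrm7, a chaperone of the Rieske protein of complex III, at 10.7 and 9.60 CPM against 6.18 and 6.10 (-0.73, SE 0.16, adjusted p = 0.021).

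Electron carriers and transporters rose in 12 of 21 and fell in 4 cases in PMs at day 3 (median 0.57), and rose in 5 and fell in 5 of 20 cases in C2C12 cells (median -0.16), near the shares of all genes there. Ucp3, the uncoupling protein of muscle, rose in both, from 0.593 and 0.310 to 24.0 and 15.0 CPM in PMs (5.32, SE 0.46, adjusted p = 4.39e-06) and from 0.0844 and 0.0355 to 1.96 and 2.51 CPM in C2C12 cells (5.22, SE 0.64, adjusted p = 0.000183). Pdss1, which makes the side chain of coenzyme Q, was at 24.0 and 20.7 CPM and then 6.18 and 5.65 in C2C12 cells (-1.96, SE 0.20, adjusted p = 5.78e-05), and Ckmt1, a mitochondrial creatine kinase with under 1 CPM in every library, was down-regulated in PMs (-1.64, SE 0.58, adjusted p = 0.0333). Ckmt2, the mitochondrial creatine kinase of striated muscle, was lower under silencing at day 3 in both cell types, at 81.4 and 76.5 against 142 and 197 CPM in PMs (-1.11, SE 0.25, adjusted p = 0.0264) and 0.159 and 0.324 against 1.53 and 1.28 CPM in C2C12 cells (-2.54, SE 0.51, adjusted p = 0.0496). It was the single gene of the 4 lists called under silencing in C2C12 cells at day 3.

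Genes of mitochondrial biogenesis and mtDNA expression were up-regulated in 9 and down-regulated in 10 of 28 cases in PMs at day 3 (median -0.05), near the shares of all genes, and in 3 and 6 cases in C2C12 cells (median -0.24). Esrrb, a nuclear receptor of the oestrogen-related family, rose in PMs from 1.12 and 1.27 to 17.9 and 11.7 CPM (3.57, SE 0.38, adjusted p = 1.83e-05), and Mterf, a mitochondrial transcription terminator, was down-regulated (-1.14, SE 0.24, adjusted p = 0.00188). Esrrg, of the same receptor family, was lower under silencing in PMs at day 3, at 13.4 and 11.1 against 38.6 and 31.2 CPM (-1.51, SE 0.30, adjusted p = 0.0153). In C2C12 cells Esrrg was also called at day 3 but stayed at 0.401 and 0.547 CPM, and Pprc1, a coactivator related to PGC-1, was down-regulated from 120 and 126 to 53.9 and 62.7 CPM (-1.11, SE 0.24, adjusted p = 0.0042).

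The citric acid cycle supplies electrons to the chain. In PMs 14 of its 18 genes were up-regulated and 2 down-regulated at day 3 (median 0.63), 12 were down-regulated from day 3 to day 6 (median -0.52, against 2.54% of all genes), and 9 were down-regulated and 1 up-regulated under silencing at day 3 (median -0.42, against 3.43% and 3.91%). In C2C12 cells at day 3, 2 rose and 1 fell (median 0.11), with Pdha1, a subunit of pyruvate dehydrogenase, up by 0.65 (SE 0.18, adjusted p = 0.0175). Pdhb, its partner subunit, rose in PMs from 186 and 170 to 471 and 422 CPM (1.27, SE 0.11, adjusted p = 4.39e-06). Suclg2, the GTP-forming succinyl-CoA ligase subunit, went against the list, with log2 fold changes of -1.02 in PMs (SE 0.16, adjusted p = 0.000295) and -1.04 in C2C12 cells (SE 0.21, adjusted p = 0.0031), and it was lower still under silencing in PMs (-0.94, SE 0.16, adjusted p = 0.00772). From day 3 to day 6 in PMs, when 2.54% of all genes were down-regulated, 8 of 40 assembly factors were. So were 8 of 21 carriers and transporters and 1 of 28 genes of biogenesis, the last near that share. None of these genes was up-regulated, against 3.71% of all genes. Idh2, the mitochondrial isocitrate dehydrogenase that uses NADP, was the gene of the list up-regulated under silencing, at 251 and 270 against 168 and 184 CPM (0.56, SE 0.12, adjusted p = 0.0208).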

How the data were processed

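Poly-A RNA of 24 libraries was sequenced from unstranded TruSeq libraries. The submitters' processing notes name TopHat2 2.0.10 and Bowtie2 2.1.0, HTSeq 0.6.1, DESeq2 1.8.1 and build mm9, and the annotation release is not given in the sources used here. The authors deposited raw counts per gene for each library in a single table, beside normalised columns and their own fold changes and p-values, which were not used. The gene length is the authors' value. A further 36 columns of 12 other libraries were not used. Coordinates are those of the table.

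Raw counts were filtered with filterByExpr, scaled by TMM and tested in edgeR 4.0.16 (R 4.3.3) by the quasi-likelihood F-test on group means, with each cell type fitted apart (12 libraries) and all 24 libraries fitted together for comparisons between cell types. Adjusted p-values are Benjamini-Hochberg values over all genes tested, and a gene was called under 0.05. The common biological coefficient of variation was 0.242 in C2C12 cells, 0.150 in PMs and 0.202 over both, on 15303, 16144 and 16926 genes. The study's methods speak of biological replicates and the labels only number them, with no word on separate cultures, so p-values measure the spread between these samples, which may be technical. With 2 replicates a group, the spread is borrowed from all groups of the fit. Intervals and count ratios cover counting error only. Steps were tested on simulated data.

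The members and gene lists were chosen with earlier results of these data known. Genes are named by rule: the 13 mitochondrial genes, members with an isoform partner, complex II, the member of each complex with the largest called rise and fall in siControl day 3 against day 0 and in siTead1/4 against siControl at day 3 of each cell type, and the same for each list. Other members named, such as Ndufc2, Ndufs4, Ndufv3, Ndufa13, Ndufaf2, Cox4nb, Cox5a, Uqcrc1, Atp5a1, were chosen after their values were seen. A member that the rule names is not reported here. Motif searches and promoters used the RefSeq table of GRCm38.p6, in which Cox6a2 had no entry. Alternatives were DESeq2 1.42.0 with its size factors, no low-count filter, scaling without mitochondrial genes, a replicate block, a log2 fold change over 1, leaving out each library, and, chosen after seeing the data, a fit of only the compared libraries and a fit without replicate 2 of siTead1/4 C2C12 day 0. Same-numbered samples were checked for shared deviations. In C2C12 cells the correlations of 15 pairs of groups ran from -0.323 to 0.614 (7 over 0.1) and in PMs from 0.073 to 0.664 (14 over 0.1), so the numbers were not taken to pair the samples.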

Additional observations from a re-analysis of the deposited data

Results flagged for a closer look

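The change from day 0 to day 3 in siControl cells differed between the cell types for 16 members in a test of the difference itself (edgeR, all 24 libraries, 2 replicates a group). The log2 fold change was larger in PMs for these subunits of complex I, with the difference and its adjusted p: Ndufa5 (1.31, 0.00102), Ndufa9 (0.97, 0.00412), Ndufa8 (0.96, 0.0433), Ndufv2 (0.91, 0.0117), Ndufb8 (0.91, 0.0313), Ndufab1 (0.82, 0.0161), Ndufb5 (0.82, 0.0356), Ndufa10 (0.80, 0.00457) and Ndufs1 (0.60, 0.0482). In the other complexes it was larger for Uqcrc1 (1.14, 0.00428), Uqcrb (0.96, 0.00985), Cox5a (0.90, 0.0347), Sdha (0.79, 0.0091) and Atp5a1 (0.64, 0.0478). It was smaller in PMs for Cox6a2 (-3.60, 0.00547) and Cox8b (-5.75, 0.000507). The value for Cox8b rests on 1 count in C2C12 cells at day 0 and depends on the prior count.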

How the results depend on the processing

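Of 497 values of named members under an alternative, 443 kept their side of the threshold, 45 were no longer called and 9 were newly called. None that was called in either fit changed direction. Where neither fit called a value, its direction was not compared. Scaling without the mitochondrial genes moved the median of all genes by at most 0.026 (log2) and no count of called members by 1.5 times. The counts of called members that moved by more were these. Requiring a log2 fold change over 1 left 6 of 13 in C2C12 cells at day 3 and 8 of 23 at day 6, 20 of 93 and 19 of 71 in PMs, 0 of 23 from day 3 to day 6 and 0 of 11 under silencing at day 3, 12 of 40 and 14 of 51 between cell types at days 0 and 6, and 4 of 16 in the difference between cell types. Without a low-count filter 8 were called under silencing in C2C12 cells at day 3 and 2 at day 6, 36 in PMs from day 3 to day 6, 1 under silencing in PMs at day 0, and 2 and 1 in the difference of silencing between cell types at days 3 and 6. DESeq2 called 3 and 1 under silencing in C2C12 cells at days 3 and 6, 43 in PMs from day 3 to day 6, 4, 19 and 4 under silencing in PMs at days 0, 3 and 6, 27 in the difference between cell types and 2 in that of silencing at day 3. A fit of only the compared libraries, added after seeing the data, called 22 and 38 in C2C12 cells at days 3 and 6, 7 in PMs from day 3 to day 6, 1 under silencing in PMs at day 0 and 1 at day 3, and 32 in the difference between cell types. The causes were not tested.

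Leaving out 1 library at a time gave 6 to 21 calls in C2C12 cells at day 3 and 7 to 32 at day 6, 0 to 1 under silencing there at day 3, 87 to 93 and 51 to 65 in PMs at days 3 and 6, 0 to 14 from day 3 to day 6, 0 to 7 under silencing in PMs at day 3, 23 to 47 and 28 to 64 between cell types at days 0 and 6, 7 to 34 in the difference between cell types and 0 to 3 in that of silencing at day 3. Without replicate 1 of siControl day 6, 7 were called in C2C12 cells at day 6, and without replicate 2 of siControl C2C12 day 0 and day 6, 23 and 28 between cell types. The lone sample left in a group was assumed to vary like the others.

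With the replicate number as a block, 36 members were called in PMs from day 3 to day 6, and 1, 20 and 1 under silencing in PMs at days 0, 3 and 6, and no other count moved by over 1.5 times. In PMs the correlation of deviations of same-numbered samples was over 0.1 in 14 of 15 pairs of groups, with a median of 0.246. In C2C12 cells it was over 0.1 in 7 of 15, with a median of 0.098. Pairing was assumed only if every pair was over 0.1, so the block stayed an alternative. Whether same-numbered samples shared a preparation was not tested.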
